A study of Mus musculus with 8 samples.

Results

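Lyz1, Lyz2, Itln1 and Mmp7 encode 4 products of Paneth cells that are not defensins, and they were followed mouse by mouse in sorted Paneth cells. They were chosen by name, as the lysozyme, intelectin and defensin-activating protease genes of the Paneth cell granule, and make up 4 of the 55414 identifiers in the table. All 4 were counted in every mouse and passed the filter on low counts. The donors were C57BL/6J mice, 4 kept for 7 weeks on a control diet and 4 for as long on a zinc deficient one. The sample titles call the control diet a standard diet. Each mouse gave a single RNA-seq library from its small intestine. The labels name no allele beyond that strain, and the age of the animals was not given in the sources used here. Paneth cells were collected by flow sorting after the tissue was brought into single cells.

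Paneth cells sit at the base of the crypts and release granules filled with antimicrobial proteins. Lysozyme cleaves the peptidoglycan of bacterial cell walls. The mouse has a pair of neighbouring genes for it, of which Lyz1 (P lysozyme) is the form of Paneth cells and Lyz2 (M lysozyme) is best known from macrophages and neutrophils. Intelectin-1, from Itln1, is a secreted lectin that binds sugars found on microbial surfaces and is made by Paneth and goblet cells. Mmp7 encodes matrilysin, a zinc-dependent protease that removes the propiece of mouse pro-alpha-defensins and so turns them into active peptides. The alpha-defensins (Defa genes) are its substrates, and their summed count in each mouse serves here as the yardstick for the 4 genes. Of the 28 protein-coding Defa genes, 21 were counted in every mouse. How reads that match several of these similar genes were counted is not given, so their total may miss part of the family.

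On GRCm39 with the GENCODE M39 annotation, Lyz1 (ENSMUSG00000069515) lies at chr10:117123698-117128775 on the minus strand. Lyz2 (ENSMUSG00000069516) lies on the same strand at chr10:117111557-117118346, 5351 bases downstream of Lyz1. Itln1 (ENSMUSG00000038209) lies at chr1:171345690-171368943 on the minus strand. Mmp7 (ENSMUSG00000018623) lies at chr9:7692091-7699587 on the plus strand, where it overlaps AV064505, a long noncoding RNA gene of the opposite strand that had at most 25 counts in a mouse. The canonical transcripts have 4 exons in Lyz1, 4 in Lyz2, 8 in Itln1 and 6 in Mmp7.

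The coding sequences of Lyz1 and Lyz2 are 447 bases each and are identical at 425 positions (95.1%). The encoded proteins are identical at 136 of 148 residues. Their 22 base differences are what lets a read be assigned to one gene or the other within the coding region, so the stretch with most of them, bases 43 to 132 of both coding sequences, is shown with the 13 bases that differ in capitals.
Lyz1: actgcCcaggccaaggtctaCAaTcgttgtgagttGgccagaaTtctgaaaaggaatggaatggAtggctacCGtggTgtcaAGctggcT
Lyz2: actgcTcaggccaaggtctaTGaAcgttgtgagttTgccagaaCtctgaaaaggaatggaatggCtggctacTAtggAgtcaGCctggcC

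The longest run without a difference covers bases 276 to 393 of both coding sequences, 118 bases in which a read cannot be assigned by its letters. It is shown because it bounds how well the counts of both genes can be separated.
Lyz1 and Lyz2: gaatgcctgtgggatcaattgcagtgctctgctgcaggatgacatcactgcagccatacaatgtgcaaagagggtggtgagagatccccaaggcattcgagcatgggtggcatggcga

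Of all windows of 70 bases in the canonical transcripts, 92.8% of Lyz1 and 84.9% of Lyz2 occurred nowhere else in the annotated transcripts or the genome, against 100% of Itln1 and 94.5% of Mmp7. Lyz1 and Lyz2 shared 86 of these windows. How the counting program treated reads that match both genes is not given in the sources used here, so the small count of Lyz2 beside the very large count of Lyz1 is uncertain. The similarity reaches upstream of the coding sequences. Around the starts of the canonical transcripts, 120 bases were aligned without a gap and differed at 9 positions. The start of the canonical Lyz2 transcript, which is not the outer end of the gene given above, lies 47 bases upstream of that of Lyz1 in this alignment.

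Mmp7 carries the catalytic zinc site of matrix metalloproteinases, in which 3 histidines hold the zinc ion. It is shown because Mmp7 is the one zinc enzyme among the 4 genes. The stretch is bases 640 to 672 of the coding sequence, for residues 214 to 224, and capitals mark the 3 histidine codons.
Mmp7: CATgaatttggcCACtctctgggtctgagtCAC

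Library totals ranged from 8557690 to 12648005 counts. The labelled cell type was checked against its defining products, and the 28 protein-coding Defa genes held between 35.7% and 50.9% of all counts in each mouse. Markers of T and B cells summed to at most 0.553 counts per 1000000 (CPM), those of stromal and vessel cells to at most 1.71 CPM, and those of red cells to at most 0.761 CPM. Enterocyte markers summed to 137 to 407 CPM, enteroendocrine markers to 13.3 to 48.4 CPM and tuft cell markers to 11.8 to 311 CPM. Stem cell markers summed to 1511 to 2505 CPM in the control mice and 615 to 1250 CPM in the zinc deficient mice. Of these 6 markers, 0 were called in the edgeR comparison given below, beside 0.403% of all tested genes. All 6 had a log2 fold change below 0 with TMM scaling. Olfm4 had the highest mean of them, with 1513 ± 274 CPM against 613 ± 213 CPM (SD, n = 4 each). Its log2 fold change was -0.96 (adjusted p = 0.108 in edgeR's quasi-likelihood test after Benjamini-Hochberg adjustment). The part of these cells in the results was not tested.

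Levels between genes were compared per length, as transcripts per 1000000 (TPM) from the counts and the summed exon length of each gene. Lyz1 reached 100717 ± 8393 TPM (SD, n = 8 mice) and ranked 3 of all genes, after Defa24 (404972 ± 18253 TPM) and Defa30. Itln1 reached 40889 ± 5101 TPM and ranked 7, among the abundant defensins. Mmp7 reached 3855 ± 306 TPM and ranked 14, the highest of the proteases that were listed. Lyz2 reached 8.31 ± 1.77 TPM and ranked 1133. The Defa levels and all ranks depend on how reads that match several Defa genes were counted, which is not given.

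**Figure D1:**
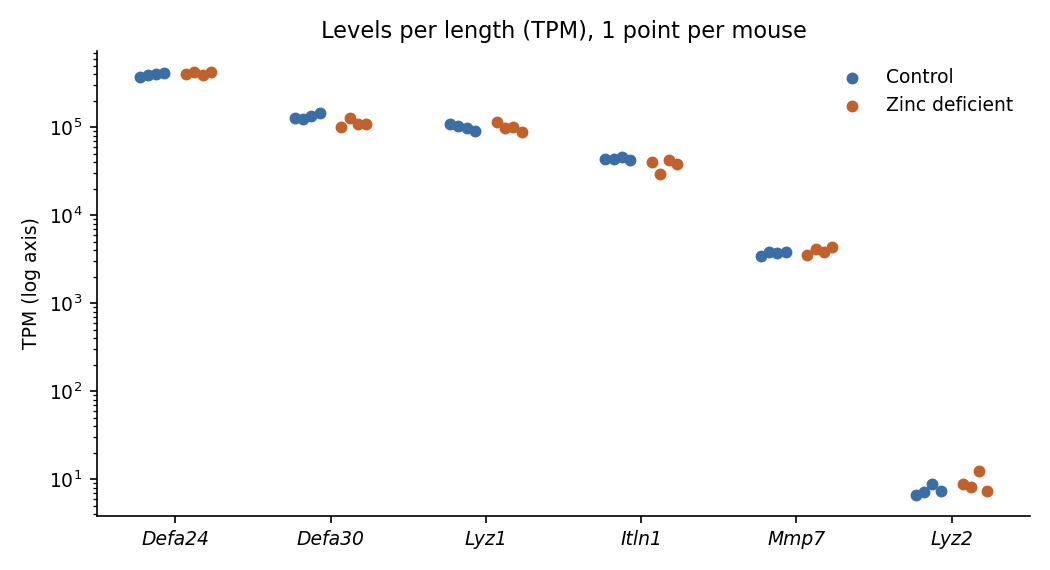
Levels per length (TPM, log axis) of Defa24, Defa30 and the 4 genes, with 1 point per mouse and colours for the diets. The 4 genes keep the order Lyz1, Itln1, Mmp7, Lyz2 in all 8 mice, and Lyz2 lies 470-fold below Mmp7.

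The order Lyz1, Itln1, Mmp7, Lyz2 held in 8 of 8 mice, and each neighbour differed beyond the spread between mice. It was taken from the mean TPM of these same 8 mice, so the tests are no independent check of the order. On the log2 TPM scale, Lyz1 exceeded Itln1 by 1.31 ± 0.22 (SD, n = 8; 2.48-fold; two-sided exact sign-flip permutation test, p = 0.00781). Itln1 exceeded Mmp7 by 3.40 ± 0.28 (10.6-fold) and Mmp7 exceeded Lyz2 by 8.88 ± 0.30 (470-fold). Both had the same exact p of 0.00781 in the sign-flip test, the smallest that 8 mice allow. The size of the Mmp7 to Lyz2 gap depends on the lengths used, and by CPM it was 7.42 on the log2 scale. The defensins, summed over their TPM, stood at 197 ± 13.2 per Mmp7 transcript and at 7.57 ± 0.731 per Lyz1 transcript (SD, n = 8). These ratios carry the same limit on reads shared between Defa genes.

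The lysozyme genes were read first. Lyz1 had 143336, 155682, 155935 and 147491 CPM in the control mice 1 to 4. In the zinc deficient mice 1 to 4 it had 181556, 172480, 152586 and 141365 CPM. Zinc deficient mice 1 and 2 were above every control, zinc deficient mouse 4 was below every control, and the groups overlapped. The means were 150611 ± 6238 CPM and 161997 ± 18319 CPM (SD, n = 4 per diet).

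In the fit across all 10911 tested genes with TMM scaling, the log2 fold change of Lyz1 (zinc deficient over control) was 0.43 with a standard error of 0.37 and a 95% interval from -0.35 to 1.21. It did not pass edgeR's quasi-likelihood test after Benjamini-Hochberg adjustment (adjusted p = 0.748). It was 0.28 without control mouse 1 and also without zinc deficient mouse 2. In libraries of sorted cells in bulk, a change in the number of cells of a type and a change in RNA per cell cannot be told apart.

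Lyz2 was counted 272, 291, 316 and 305 times in the control mice 1 to 4 and 362, 409, 553 and 390 times in the zinc deficient mice 1 to 4. Scaled to the library total these are 23.0, 27.7, 36.9 and 30.6 CPM in the control mice and 36.5, 37.1, 48.2 and 30.8 CPM in the zinc deficient mice. Zinc deficient mouse 3 was the highest and control mouse 1 the lowest. The groups overlapped, since control mouse 3 exceeded zinc deficient mice 1 and 4. For control mouse 1, counting error alone gives a 95% Wilson interval of 20.4 to 25.9 CPM, and for zinc deficient mouse 3 one of 44.4 to 52.4 CPM.

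Lyz2 averaged 29.5 ± 5.83 CPM in the controls against 38.2 ± 7.28 CPM under zinc deficiency (SD, n = 4 each). Its log2 fold change was 0.64 with a standard error of 0.24 and a 95% interval from 0.13 to 1.16, the largest of the 4 genes. The unadjusted p from edgeR's quasi-likelihood test was 0.0182, which is place 584 among the 10911 genes, and the adjusted p after Benjamini-Hochberg adjustment was 0.338. Without the filter on low counts, the value was also 0.64 and passed, with an adjusted p of 0.0145 in the same edgeR test, as the only call on these 4 genes under any setting. Without control mouse 1 it was 0.42.

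Lyz1 was counted 4785 ± 914 times for each count of Lyz2 (SD, n = 8; range 3163 to 6232). The ratio of Lyz2 to Lyz1 differed by 0.27 on the log2 scale between the diets (zinc deficient over control), which did not exceed the spread between mice (two-sided exact permutation test, p = 0.229), and which was 0.13 without zinc deficient mouse 3. Lyz2 is also a marker of myeloid cells, so the other 19 myeloid markers were read beside it. Of the 20 markers including Lyz2, 11 were at 0 counts in all mice. The other 19 summed to 1.90 to 5.75 CPM in the control mice and 0.395 to 5.32 CPM in the zinc deficient mice. The highest of these sums were those of control mouse 1, which had the lowest Lyz2, and zinc deficient mouse 3, which had the highest. The part of myeloid cells in the count of Lyz2 was not tested.

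**Figure D2:**
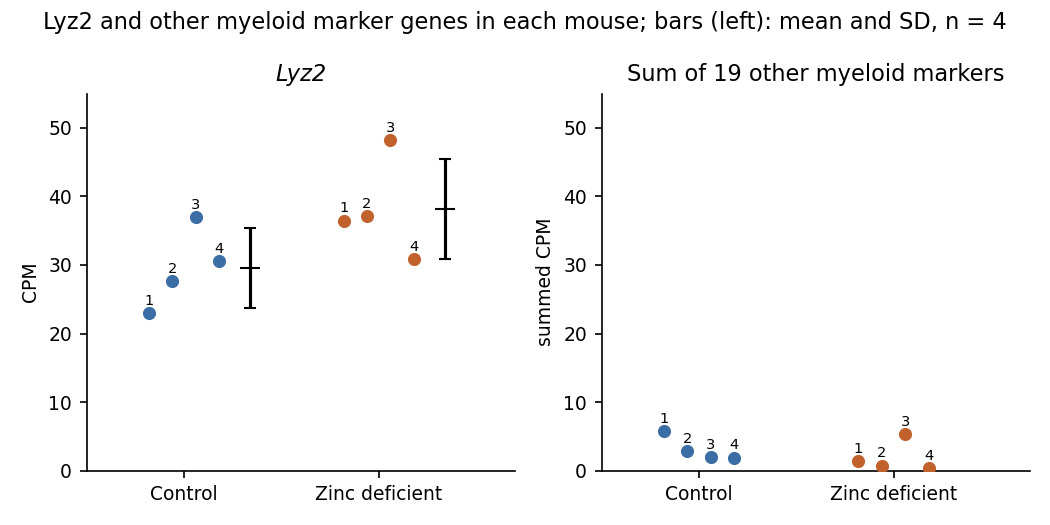
Lyz2 (left, CPM) and the summed CPM of 19 other myeloid marker genes (right), with 1 numbered point per mouse and the same vertical scale. Lyz2 lies between 23.0 and 48.2 CPM, while the other markers together stay at or below 5.75 CPM.

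Of the 10 genes of the lysozyme family, 7 had 0 counts in every mouse. Lyz3, the next gene downstream of Lyz2 and not on that list, also had 0 counts in every mouse. Of the list, Lyz1 and Lyz2 were the 2 that could be tested, and 0 were called, beside 0.403% of all tested genes.

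Itln1 had 59362, 66738, 74207 and 70365 CPM in the control mice 1 to 4. In the zinc deficient mice 1 to 4 it had 65716, 52600, 65436 and 62235 CPM. Zinc deficient mouse 2 was the lowest of all and control mouse 3 the highest, and the groups overlapped through control mouse 1. The means were 67668 ± 6321 CPM and 61497 ± 6138 CPM (SD, n = 4 each).

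The sign of the Itln1 difference depended on the scaling between mice. With TMM scaling its log2 fold change was 0.15 (standard error 0.34, 95% interval -0.56 to 0.86, adjusted p = 0.927 in edgeR's quasi-likelihood test after Benjamini-Hochberg adjustment). With scaling by library size alone it was -0.14 (adjusted p = 0.517 in the same test), and without control mouse 1 it was -0.03 under TMM. Scaling by library size moved the median of all genes to -0.37, so relative to that median Itln1 stood at 0.23, as against 0.15 under TMM. Intelectin-1 is also a goblet cell product. The 7 other goblet cell markers summed to 7150 to 10366 CPM in the control mice and 7087 to 12018 CPM in the zinc deficient mice. Of these markers 0 were called, beside 0.403% of all tested genes, and their part in the Itln1 level was not tested. The second intelectin gene of some mouse strains, Itlnb, is not a row of the table.

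Mmp7 had 4355, 5499, 5701 and 5825 CPM in the control mice 1 to 4. In the zinc deficient mice 1 to 4 it had 5351, 6916, 5579 and 6672 CPM. Zinc deficient mice 2 and 4 were above every control and control mouse 1 was the lowest, but zinc deficient mice 1 and 3 lay within the range of the controls. The means were 5345 ± 674 CPM and 6129 ± 780 CPM (SD, n = 4 each). The log2 fold change of Mmp7 was 0.52 with a standard error of 0.30 and a 95% interval from -0.12 to 1.15, and it did not pass edgeR's quasi-likelihood test after Benjamini-Hochberg adjustment (adjusted p = 0.591). It was 0.32 without control mouse 1 and 0.33 without zinc deficient mouse 2.

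**Figure D3:**
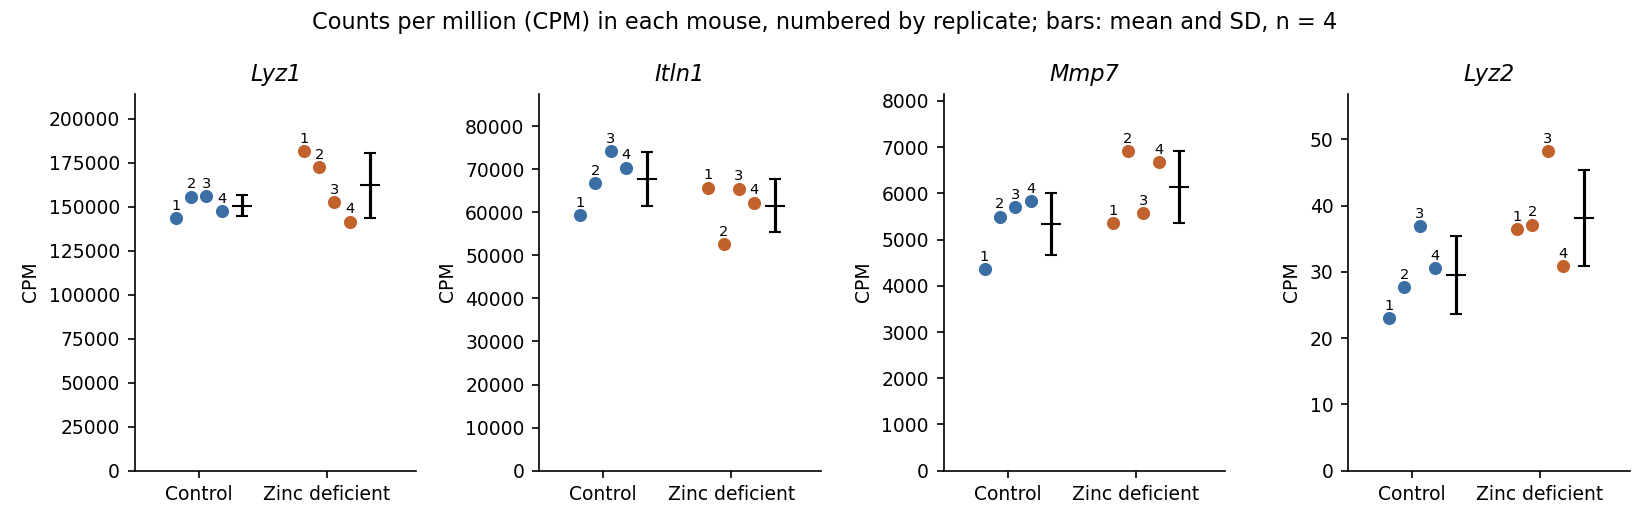
CPM of Lyz1, Itln1, Mmp7 and Lyz2 in each mouse, numbered by replicate, with the mean and SD of each diet (n = 4) beside the points. The diets overlap in all 4 panels.

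Of 23 matrix metalloproteinase genes, 13 had 0 counts in every mouse and 5 could be tested, with 0 called, beside 0.403% of all tested genes. The other 4 tested were Mmp15, Mmp20, Mmp14 and Mmp28, of which Mmp15, a membrane-bound member, had the highest mean at 51.5 CPM, against 5737 CPM for Mmp7. The log2 fold changes of these 4 were -0.06, 0.36, -0.43 and -0.71. The tissue inhibitors of metalloproteinases with Reck, 5 genes that restrain such enzymes, were too low to be tested, with Timp3 the highest at 0.599 CPM and 2 of them at 0 in every mouse. All 6 trypsin genes were at 0 in every mouse; in human Paneth cells a trypsin takes the role that matrilysin has in the mouse. Furin, a proprotein convertase of the secretory pathway, had 34.4 CPM and a log2 fold change of -0.06 (adjusted p = 0.927 in edgeR's quasi-likelihood test after Benjamini-Hochberg adjustment).

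In the edgeR comparison, 44 of 10911 genes (0.403%) were called between the diets, and of the 4 genes 0 were called. Without overlap between the diets in CPM were 6.83% of the tested genes, 33 higher and 712 lower under zinc deficiency, and of the 4 genes 0. With TMM-scaled CPM, 6.09% of the tested genes did not overlap, and all 4 genes overlapped. All 4 log2 fold changes were above 0 under TMM scaling, while the median of all genes was -0.0052. With scaling by library size alone they were 0.11 for Lyz1, 0.37 for Lyz2, -0.14 for Itln1 and 0.20 for Mmp7. Relative to the median of all genes, they were 0.44 for Lyz1, 0.65 for Lyz2, 0.15 for Itln1 and 0.52 for Mmp7 under TMM. With scaling by library size, the values relative to its median were 0.47, 0.74, 0.23 and 0.57. Subtracting the median centres both scalings alike, so the likeness of these sets is built in. The TMM factors of the controls spanned 0.928 to 1.57 and those of the zinc deficient mice 0.719 to 1.10, with control mouse 1 at the top and zinc deficient mouse 2 at the bottom. The interval of Lyz1 reaches from a fold of 0.787 to 2.31, so the data leave both a fall and a rise within those bounds possible.

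**Figure D4:**
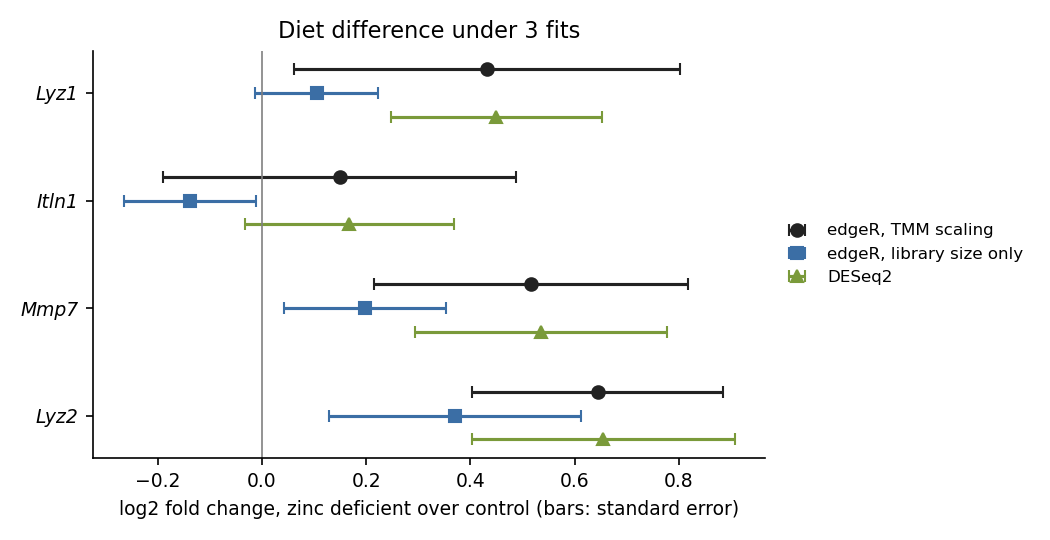
Log2 fold change (zinc deficient over control) of the 4 genes under 3 fits, with bars for the standard error. The points for library size alone lie to the left of the other fits for every gene, and Itln1 changes sign from 0.15 to -0.14.

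A ratio within a mouse does not depend on the scaling between mice, so each gene was set against the Defa total of the same mouse. The percents are of the counts assigned to Defa genes, which may not be all of their reads. Lyz1 amounted to 40.2%, 37.5%, 34.3% and 31.8% of the Defa counts in the control mice 1 to 4 and to 41.4%, 33.9%, 36.3% and 32.0% in the zinc deficient mice. Both diets had a mean of 35.9% (SD 3.67 and 4.09, n = 4 each) and spanned nearly the same range. The difference on the log2 scale was -0.0037 (two-sided exact permutation test, p = 0.971).

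Mmp7 amounted to 1.22%, 1.32%, 1.25% and 1.25% of the Defa counts in the control mice and to 1.22%, 1.36%, 1.33% and 1.51% in the zinc deficient mice. The protease thus stayed within 1.22% to 1.51% of the counts of its substrates in all 8 mice, and zinc deficient mouse 4 was the highest. The means were 1.26% ± 0.0438 and 1.35% ± 0.119 (SD, n = 4 each), and the log2 difference of 0.095 did not exceed the spread (two-sided exact permutation test, p = 0.257). It was 0.042 without zinc deficient mouse 4 and 0.14 without zinc deficient mouse 1 (exact permutation p = 0.0571, the smallest that 3 against 4 mice allow). Among 459 genes that average 100 CPM or more and are no Defa genes, the SD over 8 mice of the log2 ratio of Mmp7 to the Defa total, 0.10, was the 4th smallest. The median of those genes was 0.44. Lyz1 ranked 31 with 0.14 and Itln1 ranked 72 with 0.22. By the SD of log2 CPM in place of the ratio, Mmp7 ranked 112, Lyz1 19 and Itln1 47.

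Itln1 amounted to 16.6%, 16.1%, 16.3% and 15.2% of the Defa counts in the control mice and to 15.0%, 10.3%, 15.6% and 14.1% in the zinc deficient mice. The zinc deficient mice were lower except mouse 3, which exceeded control mouse 4, and mouse 2 was lower than all. The means were 16.1% ± 0.639 and 13.7% ± 2.36 (SD, n = 4 each). The log2 difference was -0.24 and did not pass (two-sided exact permutation test, p = 0.0571, where 0.0286 is the smallest p that 4 against 4 mice allow). Without zinc deficient mouse 2, the difference was -0.11. Zinc deficient mouse 2 also had the highest Defa share of all counts, 50.9%.

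**Figure D5:**
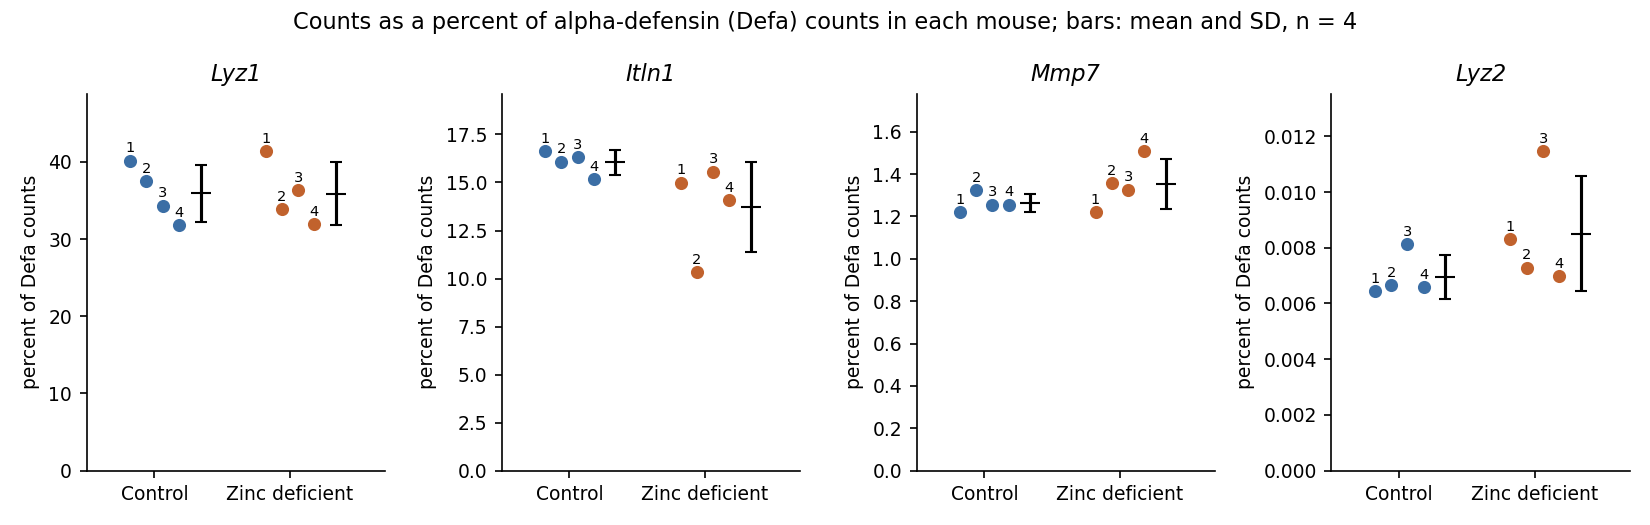
Counts of each gene as a percent of the Defa counts of the same mouse, numbered by replicate, with mean and SD (n = 4). Mmp7 keeps between 1.22% and 1.51% in all 8 mice, and zinc deficient mouse 2 stands low in Itln1 at 10.3%.

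Lyz2 amounted to 0.00645%, 0.00667%, 0.00813% and 0.00658% of the Defa counts in the control mice and to 0.00832%, 0.00729%, 0.0115% and 0.00697% in the zinc deficient mice. Zinc deficient mouse 3 was the highest and the groups overlapped. The log2 difference of 0.27 did not exceed the spread (two-sided exact permutation test, p = 0.171), and it was 0.12 without zinc deficient mouse 3. The balance between the abundant genes was also within the spread: the ratio of Itln1 to Lyz1 differed by -0.24 (exact permutation p = 0.171; -0.13 without zinc deficient mouse 2) and that of Mmp7 to Lyz1 by 0.10 (exact permutation p = 0.571), on the log2 scale. The 4 genes together took 22.4% ± 1.21 of all counts on the control diet and 23.0% ± 1.78 on the zinc deficient diet (SD, n = 4; exact permutation p = 0.686). These are 8 exact tests, and the lowest p among them, before any correction, is the 0.0571 of Itln1.

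The genes whose TMM-scaled log2 CPM varied most like each of the 4 were sought among 5790 genes over the 8 mice, as a description. All values share the TMM factors of their libraries, which by itself makes levels rise and fall together. Mmp7 was closest to Cox7a2 (Pearson r = 0.995), the defensin Defa39 (r = 0.992) and Ndufa4 (r = 0.992), and Defa24 was number 6 of the 5790 genes (r = 0.990). Lyz1 was closest to Tceal9 (r = 0.988), Tprg1l (r = 0.983) and Tmem242 (r = 0.977), with Defa24 at place 17 (r = 0.956). Itln1 was close to Pglyrp1 (r = 0.989), which encodes a peptidoglycan recognition protein, and to Eif1ax (r = 0.984). Lyz2 was closest to Atg5 (r = 0.973), Ftl1 (r = 0.966) and Timm8b (r = 0.963), and its r with Lyz1 was 0.880, at place 143. Among the 4 genes, the highest r was that of Lyz1 and Mmp7 (0.925) and the lowest that of Lyz2 and Itln1 (0.839).

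Genes that act on these products were read from lists. Calls covered 0.403% of all tested genes, so 0 calls on a short list say little. Of 7 genes for the sorting of lysozyme into granules, 5 could be tested, 4 with a log2 fold change above 0, and 0 were called. Among them, Xbp1, a transcription factor of the secretory pathway, had a log2 fold change of -0.03 and Rab2a, a small GTPase of granule formation, one of 0.19. Lrrk2 was at 0 in every mouse, and Nod2, a sensor of peptidoglycan fragments, had 0 to 8 counts. Of 8 regulators of the Paneth cell programme, all could be tested and 0 were called. Their log2 fold changes were above 0 for 7 and below 0 for 1, with a median of 0.18. The 1 below 0 was Ctnnb1 (-0.16), which had the highest level of them with 279 CPM. Sox9 (0.06) and Gfi1 (0.14) lay below the others, which ran from 0.17 to 0.28. Of 9 other proteins of Paneth cell granules, Ang4, an angiogenin with antimicrobial activity, had the highest mean, with 13173 ± 1037 CPM in the controls and 20837 ± 8388 CPM in the zinc deficient mice (SD, n = 4 each). Its log2 fold change was 0.99 and did not pass (adjusted p = 0.276 in the edgeR test). Of the 9, 8 could be tested and 2 rose with the zinc deficient diet, Reg3b by 2.25 and Reg3g by 1.60 on the log2 scale. These are C-type lectins with antibacterial activity, and their adjusted p was 0.0174 and 0.00711 in edgeR's quasi-likelihood test after Benjamini-Hochberg adjustment. Reg3b no longer passed that edgeR test without control mouse 1 (adjusted p = 0.0728), control mouse 4 (0.0595) or zinc deficient mouse 4 (0.0530), while Reg3g passed with any 1 mouse left out. The median of the 8 was 1.20, against 0.43 for Lyz1, 0.15 for Itln1 and 0.52 for Mmp7, and whether these differ was not tested.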

How the data were processed

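RNA-seq libraries of sorted Paneth cells (Illumina TruSeq stranded mRNA kit) were used. The authors deposited raw counts, whole numbers by Ensembl gene, with no normalization. The submitters' processing notes name the mm39 build, FastQC 0.12.0, STAR 2.7.0a and DESeq2, with no role stated. The counting program, its strand setting and its treatment of reads with several matches are unknown: they were not given in the sources used here. Of 55414 identifiers, 54749 were found in GENCODE M39 on GRCm39 and 665 were not. Samples were grouped by the diet in their labels.

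CPM and TPM (summed exon length) were computed from the counts. A count of 0 allows up to 3 counts; intervals cover counting error only. The comparison of diets used R 4.3.3 and edgeR 4.0.16 (TMM scaling, expression filter, robust quasi-likelihood test, Benjamini-Hochberg threshold 0.05), with DESeq2 1.42.0 as an alternative. Ratios of counts were compared on the log2 scale by exact permutation over 70 assignments. Members, lists and tests were chosen with earlier results of these data known. Text names the 4 genes, listed genes that passed or had the highest mean of their list (marker lists of other cells are given as sums, apart from Olfm4), a few further listed genes picked after their values were seen (Mmp14, Mmp15, Mmp20, Mmp28, Rab2a, Nod2, Lrrk2, Sox9, Gfi1) with Lyz3, which is on no list, and the 3 genes most like each of the 4 among those of at least 10 CPM, of which 1 is not reported here. Nothing in the labels says more of the replicates than their number, so p-values measure the spread between these 8 libraries. No pair of libraries of the same diet agreed within sampling noise (chi-square per degree of freedom 5.43 to 55.1 over 12 pairs). On simulated counts of the 10911 genes of this comparison, 62% of genes changed 2-fold and 91% of those changed 4-fold were called. Of the calls, 8.38% were false. These rates average over 200 changed genes picked at random, so they give no power for the 4 genes in particular. Sequences come from the GRCm39 genome with M39. Python 3.11.15, numpy 2.4.6, scipy 1.17.1 and pandas 2.3.3 were used.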

Additional observations from a re-analysis of the deposited data

Results flagged for a closer look

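Of 32 groups of 4 values examined, 2 held a value that stood far from the others, and chance marks about 1 in 20 such groups. Lyz2 as a percent of the Defa counts was 0.00813% in control mouse 3, against 0.00667% in the nearest control mouse. Lyz2 per 1000000 Lyz1 counts was 316 in zinc deficient mouse 3, against 218 in the nearest zinc deficient mouse. Both concern Lyz2, whose counts of 272 to 553 per mouse are the smallest of the 4 genes.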

How the results depend on the processing

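The number of called genes, 44, was 11 with scaling by library size only, 251 without the filter, 25 without robust fitting, 134 by DESeq2 and 8 to 36 when a mouse was left out (8 without control mouse 2 or 4, 26, 13 and 17 without zinc deficient mouse 1, 2 or 4). The cause was not tested. Without the filter, Lyz2 kept 0.64 and passed. Itln1 reversed to -0.14 with library size only and ran from -0.031 (without control mouse 1) to 0.29 when a mouse was left out. Differences near 0 turned sign: Lyz1 to Defa was 0.042 without Defa24 in the total and -0.075 to 0.052 with a mouse left out, Mmp7 to Lyz1 -0.0079 (without zinc deficient mouse 4) to 0.22 (without mouse 1), and the share of the 4 genes -0.61 percentage points in TPM and -0.17 to 1.25 with a mouse left out. The other 170 values kept direction and call, some with another size as given beside the results. The replicate block called 53 genes and none of the 4. The replicate numbers were not taken to pair the mice: nothing in the labels ties them, and the correlations of same-numbered mice were only 0.0299 to 0.0900. That 5 of 8 mice were closest to their own number is a hint from the data, not the design. Under the block, Lyz2 to Defa and Itln1 to Defa kept their direction, each with an exact p of 0.125, the smallest for 4 pairs. With a mouse left out, the exact permutation tests between the diets cannot go below 0.0571.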
